A study of Rattus norvegicus with 38 samples.

Results

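Fos and 8 other immediate-early genes were followed across 5 heart regions of rats with failing or healthy hearts. The genes were chosen by Ensembl ID, and the list began from Fos (ENSRNOG00000008015), which was selected on its higher level in failing hearts. Its values by health state and by region are therefore given below as a description, with no test. The other listed genes were Fosb (ENSRNOG00000046667), Jun (ENSRNOG00000026293), Junb (ENSRNOG00000042838), Atf3 (ENSRNOG00000003745), Egr1 (ENSRNOG00000019422), Nr4a1 (ENSRNOG00000007607), Dusp1 (ENSRNOG00000003977) and Myc (ENSRNOG00000004500). Of these 9 genes, 7 matched an ID among the 24057 in the deposited gene tables. Junb and Dusp1 were not analysed here. All 7 matched genes passed the filter on low counts in every comparison.

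The libraries came from male Sprague-Dawley rats aged 10 weeks, and RNA was sequenced from pieces of the superior sinoatrial node (sSAN), the inferior sinoatrial node (iSAN), the 2 atria (RA on the right, LA on the left) and the left ventricle (LV). Per the labels, the ascending aorta of pups was constricted at 1 week of age, which loads the left ventricle with pressure, and left ventricular hypertrophy followed. The same protocol stands on failing and healthy libraries, and what was done to the healthy rats is stated nowhere in the sources used here. Each group had 4 libraries, except the healthy LV with 2, which makes 38 in all. The titles end in codes that return from region to region and are called A (as in title RA_0409), B (RA_0506), C (RA_0507) and D (RA_0508) in failing hearts. Those of healthy hearts are called E (RA_0920), F (RA_0921), G (RA_1001) and H (RA_1002), and the healthy LV has only G and H. Titles of healthy node libraries begin otherwise (ST and SB) than those of failing ones, and their region was taken from the label of the heart chamber. As 0 codes occur in both health states, anything tied to a code cannot be told apart from health state. Whether a code stands for an animal is not said in the labels. If some libraries share an animal, the p-values cover only the spread among these libraries, which may be technical.

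Library totals ran from 17406473 to 27355777 estimated counts, with a median of 22236533. Behind the values below were 1000.6 to 11396 estimated counts per library for Jun, 2.0 to 14724 for Fos, 8.87 to 3301 for Fosb and 20.0 to 1849 for Atf3. Counts scaled to library size (CPM) compare 1 gene between libraries, and values also scaled for transcript length (TPM) compare genes within a library. The regions' cell type markers were not checked, because the files hold Ensembl IDs without names. The samples are bulk tissue, in which fewer cells of a type and less RNA per cell cannot be told apart.

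Immediate-early genes are transcribed soon after a cell is stimulated, from factors already present in the cell and without new protein synthesis. Serum response factor at CArG boxes and CREB at cAMP response elements are the best known of these factors. Fos and Fosb proteins pair with Jun proteins to form the transcription factor AP-1, Egr1 is a zinc finger activator, Atf3 is a stress-induced member of the ATF/CREB family, Nr4a1 is an orphan nuclear receptor and Myc is a growth regulator. In heart muscle these genes are known to respond to stretch, catecholamines and pressure load, and in many tissues to excision and handling. The sources used here do not state how long each piece was kept before storage.

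RefSeq promoters of the GRCr8 build were at hand for 5 of the 9 listed genes, among them Egr1, Nr4a1 and Fosb, 3 of the genes described below. Their 250 bases before the annotated start are printed 5′ to 3′ on the gene's strand. They show where the letters of the usual stimulus-response motifs stand in these windows. The windows depend on the annotated start, which was not checked here. Capitals mark matches to the CArG box, the CREB core TGACG, on either strand, or the EGR site GCGGGGGCG.
Egr1 promoter, chr18:26736828-26737077, plus strand: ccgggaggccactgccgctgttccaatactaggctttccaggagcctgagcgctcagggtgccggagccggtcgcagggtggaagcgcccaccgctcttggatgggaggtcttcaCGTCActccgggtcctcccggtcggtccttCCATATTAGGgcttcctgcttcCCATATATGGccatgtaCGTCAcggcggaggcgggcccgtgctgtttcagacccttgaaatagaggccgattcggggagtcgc
Nr4a1 promoter, chr7:134259888-134260137, plus strand: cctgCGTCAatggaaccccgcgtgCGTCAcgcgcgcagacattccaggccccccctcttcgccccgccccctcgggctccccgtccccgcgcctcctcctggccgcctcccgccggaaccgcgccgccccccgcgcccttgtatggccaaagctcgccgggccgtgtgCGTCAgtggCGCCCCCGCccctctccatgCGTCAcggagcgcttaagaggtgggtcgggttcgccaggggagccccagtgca
Fosb promoter, chr1:88089185-88089434, minus strand: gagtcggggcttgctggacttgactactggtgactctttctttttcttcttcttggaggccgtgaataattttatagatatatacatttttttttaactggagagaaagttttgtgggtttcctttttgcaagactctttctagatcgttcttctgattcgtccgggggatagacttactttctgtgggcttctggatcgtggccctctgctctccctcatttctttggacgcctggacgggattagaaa
The Egr1 window held 2 CArG boxes, at 105 to 96 and 83 to 74 bases before the start, and 2 CREB cores. The Nr4a1 window held 4 CREB cores and 1 EGR site, at 73 to 65 bases before the start, between 2 of the cores. The Fosb window held none of these letters and no AP-1 site TGANTCA. Both strands were searched. Among 27457 promoter windows of 250 bases, 1.5% held a CArG box, 19% a CREB core, 6.36% an AP-1 site and 2.49% an EGR site. A match is a run of letters and not a measured binding site, and the absence of one says only that these letters are not in this window.

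Fos was highest in the sinoatrial node of failing hearts and low in every healthy library. In the sSAN the failing libraries had 628, 279, 192 and 381 CPM, in the order of codes A, B, C and D, which is kept throughout. The healthy sSAN libraries, in the order E, F, G and H, had 4.70, 1.13, 1.49 and 0.746 CPM. The lowest failing library thus stood far above the highest healthy one.

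In the iSAN, Fos was at 145, 405, 130 and 235 CPM in failing and 4.25, 2.40, 4.07 and 4.11 CPM in healthy libraries. In the RA the failing values were 168, 63.8, 71.0 and 60.8 CPM, against 4.76, 2.12, 1.98 and 1.45 CPM. These groups did not overlap in either region, and code A had the highest Fos of the failing RA. In the LA the failing libraries had 96.6, 5.71, 11.8 and 8.78 CPM and the healthy ones 2.27, 3.66, 1.5 and 0.774 CPM. The LA groups did not overlap, but 1 failing library, A, was far above the other 3. In the LV the failing libraries had 1.92, 3.17, 0.277 and 13.5 CPM and the healthy ones 0.589 and 0.703 CPM. Here the groups overlapped, since failing library C, with 2.0 estimated counts, was the lowest of all 38.

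The log2 difference of failing minus healthy for Fos was 7.48 (SE 0.68) in the sSAN, 5.90 (SE 0.44) in the iSAN, 5.14 (SE 0.47) in the RA, 3.87 (SE 0.97) in the LA and 2.89 (SE 1.37) in the LV. Single libraries set part of it. Without the healthy sSAN library E the sSAN difference was 8.33, without the failing LA library A the LA difference was 2.08, and without the failing LV library D the LV difference was 1.48.

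**Figure D1:**
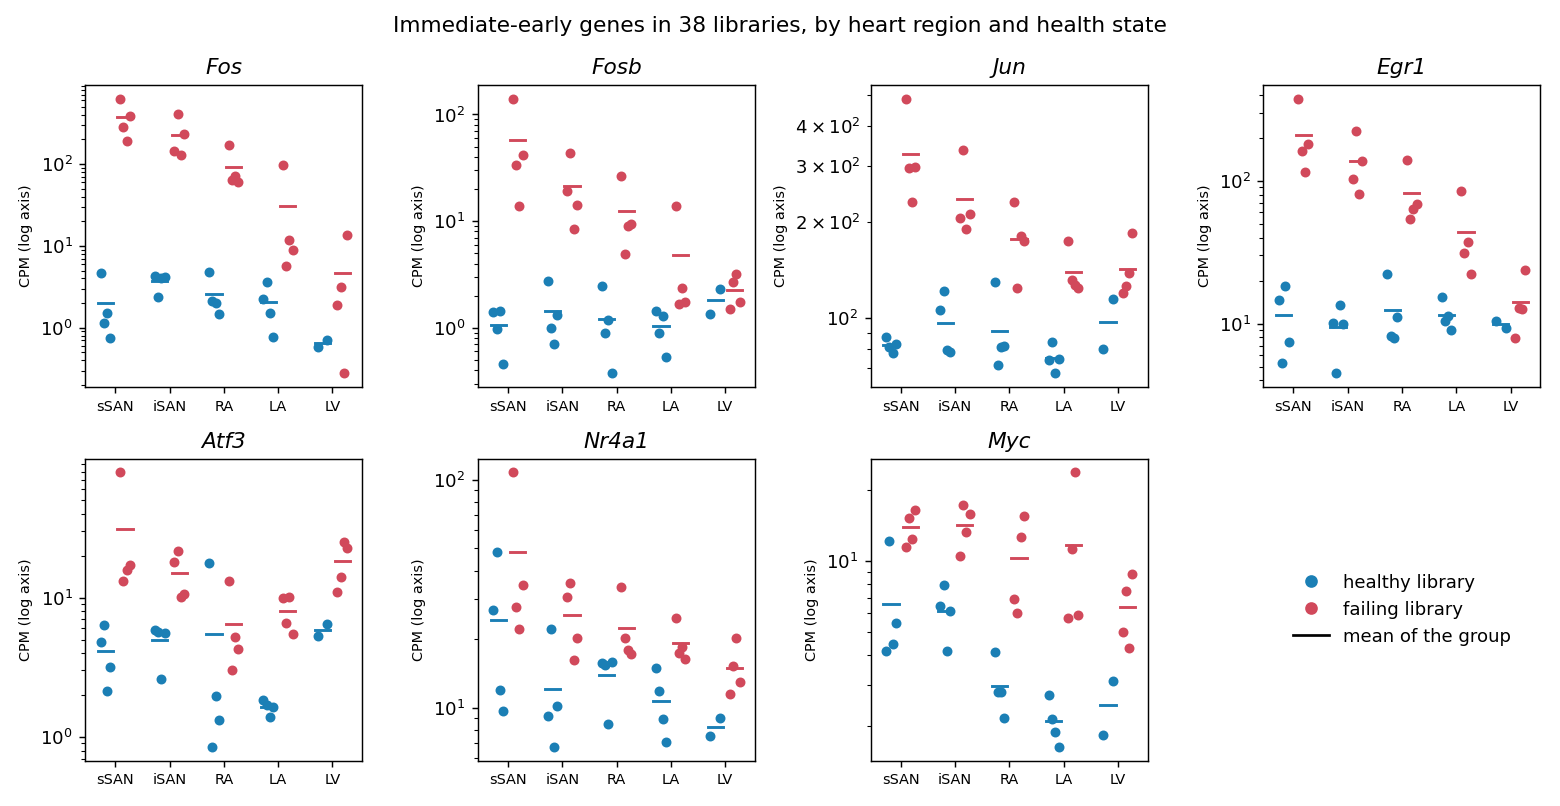
CPM of each gene (log axis, 1 panel per gene) in the 38 libraries by region, with healthy libraries in blue, failing ones in red and a line at the mean of each group. Fos in failing hearts steps down from a mean of 370 CPM in the sSAN to 4.72 CPM in the LV, while its healthy means lie between 0.646 and 3.71 CPM.

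Of the other 6 genes, 5 passed the test as higher in failing hearts in the iSAN, where 19.5% of all genes tested did. The count was 4 of 6 in the sSAN, against 8.92% of all genes, 5 of 6 in the RA, against 24.5%, and 6 of 6 in the LA, against 24.3%. In the LV it was 0 of 6, as for all genes (0%). Called lower in failing hearts were 0 of the 6 in each region. Over all genes, 2803 of the 5533 called in the iSAN were higher, and 1280 of 1934 in the sSAN. The higher ones were 3434 of 6657 in the RA and 3461 of 6853 in the LA, and the rest were lower. The median log2 difference over the 6 genes was 2.45 in the sSAN, 1.41 in the iSAN, 1.37 in the RA, 2.05 in the LA and 0.70 in the LV. Over all genes tested it lay between -0.01 and 0.03. The members were chosen with earlier results of these data known, so these counts are no independent test of the list.

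Fosb, the other Fos family member on the list, passed as higher in failing hearts in both node parts and both atria. Its failing sSAN libraries had 141, 33.5, 13.9 and 41.9 CPM, and the healthy ones 1.41, 0.979, 1.45 and 0.456 CPM. The groups did not overlap, and library A was more than 3 times as high as any other. The log2 difference was 5.72 (SE 0.77, edgeR adjusted p = 0.0087) and 4.77 without that library.

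In the iSAN, Fosb was at 19.3, 43.7, 8.45 and 14.2 CPM in failing and 2.75, 0.990, 0.708 and 1.33 CPM in healthy libraries, a log2 fold difference of 3.84 (SE 0.60, edgeR adjusted p = 0.0023) that was 3.24 without library B. In the RA it was at 26.8, 4.94, 9.07 and 9.35 CPM against 2.44, 0.889, 1.18 and 0.374 CPM, a difference of 3.37 (SE 0.62, edgeR adjusted p = 0.0021) and 2.66 without library A. Neither pair of groups overlapped. The LA stood differently, with 13.7, 1.66, 2.34 and 1.74 CPM in failing and 1.43, 0.897, 1.30 and 0.530 CPM in healthy libraries. The LA difference of 2.20 (SE 0.73, edgeR adjusted p = 0.033) was 0.87 without failing library A, and the call was then lost. It was also lost without any 1 of the 4 healthy LA libraries, with differences of 1.98 to 2.39, with no filter on low counts (2.20) and with limma on log2(TPM + 1) (0.72). In the LV, Fosb was at 1.5, 2.68, 3.19 and 1.75 CPM in failing and 1.36 and 2.32 CPM in healthy libraries, which overlapped, a difference of 0.29 (SE 0.52, edgeR adjusted p = 0.80).

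Jun, the AP-1 partner, was at 67.3 to 130 CPM in every healthy library and had smaller differences than Fosb outside the LV. The healthy sSAN libraries lay between 78.1 and 87.6 CPM, and the failing ones were at 486, 295, 232 and 297 CPM. The log2 difference was 1.98 (SE 0.22, edgeR adjusted p = 0.0042). In the iSAN the failing libraries had 206, 337, 191 and 211 CPM and the healthy ones 106, 122, 79.4 and 78.3 CPM, a difference of 1.25 (SE 0.22, edgeR adjusted p = 0.0033). The groups did not overlap in either node part.

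In the LA, Jun was at 174, 131, 127 and 125 CPM in failing and 67.3 to 84.3 CPM in healthy libraries, a difference of 0.88 (SE 0.13, edgeR adjusted p = 0.00067). The RA difference of 0.96 (SE 0.22, edgeR adjusted p = 0.006) came with overlapping groups, 231, 124, 180 and 174 CPM against 130, 71.5, 81.3 and 81.8 CPM. The healthy RA library E was above the failing library B there. In the LV, Jun had 120, 126, 139 and 185 CPM in failing and 80.3 and 115 CPM in healthy libraries, a difference of 0.54 (SE 0.29) that did not pass (edgeR adjusted p = 0.48). The calls for Jun in the node and the atria held under all 14 alternatives computed for each.

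The unequal size of the Fos and Jun differences changed their order within a library, on the TPM scale. The median Fos level in failing libraries was 264 TPM in the sSAN, 194 TPM in the iSAN, 54.7 TPM in the RA, 8.18 TPM in the LA and 1.10 TPM in the LV. Median Jun was 73.0, 65.8, 40.0, 34.4 and 17.4 TPM in the same order. Fos over Jun was 2.66 to 4.15 in the failing sSAN, 2.18 to 3.86 in the failing iSAN and 1.12 to 2.34 in the failing RA, so that all 12 of these libraries had more Fos than Jun. In the failing LA it was 0.140 to 1.78, with only library A above 1. All 18 healthy libraries had less Fos than Jun, with the highest ratio of 0.172 in the sSAN. The ratio uses the Fos values that selected the gene and is a description.

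**Figure D2:**
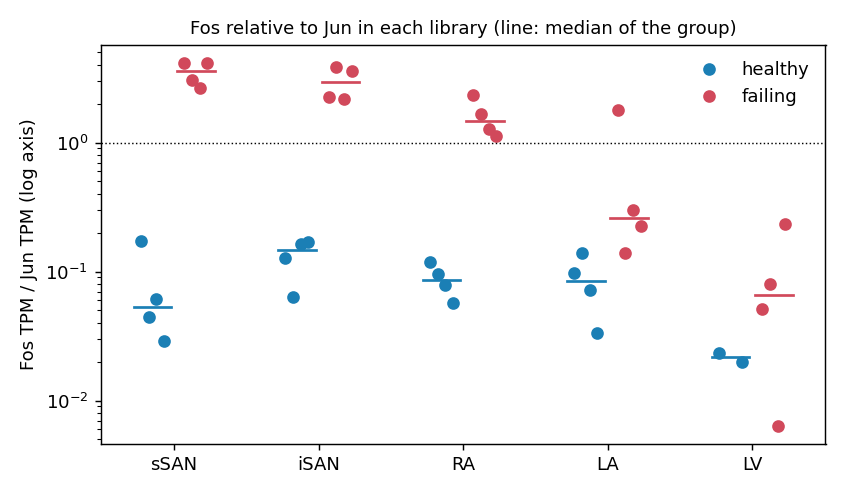
Fos TPM divided by Jun TPM (log axis) in each library by region, healthy in blue and failing in red, with a line at each group's median and a dotted line where both are equal. The failing node and RA libraries lie above the dotted line, 1 of 4 failing LA libraries does, and the failing LV libraries lie between 0.00641 and 0.234.

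Egr1 rose in every region but the LV, and it had the highest within-group correlation with Fos of the other 6 genes. Its failing libraries had 375, 161, 116 and 180 CPM in the sSAN and 104, 224, 80.1 and 137 CPM in the iSAN. The healthy ones had 14.7, 5.26, 18.2 and 7.38 CPM in the sSAN and 10.1, 4.48, 13.5 and 9.90 CPM in the iSAN. Each failing value exceeded every healthy one, with log2 differences of 4.18 (SE 0.50, edgeR adjusted p = 0.0058) and 3.8 (SE 0.41, edgeR adjusted p = 0.00079).

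In the RA, Egr1 was at 140, 54.2, 63.7 and 69.0 CPM in failing and 22.2, 8.22, 7.98 and 11.2 CPM in healthy libraries, a difference of 2.73 (SE 0.40, edgeR adjusted p = 0.00077). In the LA it was at 84.7, 31.1, 37.3 and 22.1 CPM against 15.4, 10.4, 11.3 and 8.96 CPM, a difference of 1.91 (SE 0.39, edgeR adjusted p = 0.0035). The groups did not overlap in either atrium. In the LV the failing libraries had 7.91, 12.8, 12.6 and 23.6 CPM and the healthy ones 10.4 and 9.28 CPM, which overlapped, with a difference of 0.53 (SE 0.45, edgeR adjusted p = 0.61). The 4 calls for Egr1 outside the LV held under all 14 alternatives computed for each.

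Atf3 passed in 3 regions, both node parts and the LA. In the sSAN the failing libraries had 78.8, 13.2, 15.8 and 17.1 CPM and the healthy ones 4.81, 6.39, 2.14 and 3.19 CPM, a log2 fold difference of 2.91 (SE 0.64, edgeR adjusted p = 0.024). Without library A the difference was 1.89, and the call was lost without healthy library E or H, with differences of 2.98 and 2.81. In the iSAN it was at 17.9, 21.5, 10.1 and 10.6 CPM against 5.81, 5.71, 2.62 and 5.61 CPM, a difference of 1.57 (SE 0.32, edgeR adjusted p = 0.0062). These groups did not overlap, but in 1 fit of all libraries the difference was 1.61 and the call was lost.

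In the LA, Atf3 was at 10.0, 6.61, 10.1 and 5.45 CPM in failing and 1.83, 1.69, 1.38 and 1.63 CPM in healthy libraries. The log2 difference was 2.28 (SE 0.24, edgeR adjusted p = 0.00019). The RA gave 13.2, 3.02, 5.23 and 4.25 CPM in failing and 17.8, 0.847, 1.98 and 1.33 CPM in healthy libraries, and the difference of 0.24 (SE 0.87) did not pass (edgeR adjusted p = 0.83). The healthy RA library E was the highest of the 8. Without it the difference was 2.21 and passed.

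Nr4a1 had log2 differences between 0.69 and 1.05 in all 5 regions. It rose in the LA, from 14.9, 11.8, 8.97 and 7.09 CPM in healthy to 24.7, 17.3, 18.5 and 16.4 CPM in failing libraries, a log2 fold difference of 0.83 (SE 0.23, edgeR adjusted p = 0.014). In 1 fit of all libraries the difference was 0.84 and the LA call was lost. In the RA the values were 33.8, 20.3, 18 and 17.3 CPM in failing and 15.8, 15.4, 8.49 and 15.8 CPM in healthy libraries, a difference of 0.69 (SE 0.26, edgeR adjusted p = 0.048). These groups did not overlap, but the RA call was lost in 10 of 14 alternatives, among them the removal of failing library A, which gave 0.42, or B, or of any 1 healthy library.

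In both node parts the Nr4a1 groups overlapped. The failing sSAN libraries had 108, 27.7, 22.1 and 34.5 CPM and the healthy ones 26.8, 48.2, 12 and 9.66 CPM, a difference of 0.98 (SE 0.62, edgeR adjusted p = 0.30). The iSAN libraries had 30.6, 35.2, 16.2 and 20.3 CPM against 9.18, 22.3, 6.72 and 10.2 CPM, a difference of 1.05 (SE 0.39, edgeR adjusted p = 0.059). The iSAN difference passed without healthy library F, at 1.52, and with DESeq2, at 1.04.

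Myc rose in 3 regions and, unlike Fos, had its largest differences in the atria. In the LA the failing libraries had 5.72, 11.3, 23.7 and 5.89 CPM and the healthy ones 2.71, 2.15, 1.90 and 1.63 CPM, a log2 fold difference of 2.46 (SE 0.46, edgeR adjusted p = 0.0024) that was 1.86 without library C. In the RA they had 6.94, 6.0, 12.6 and 15.6 CPM against 4.13, 2.80, 2.79 and 2.16 CPM, a difference of 1.78 (SE 0.33, edgeR adjusted p = 0.0021). In the iSAN they had 10.6, 17.2, 13.3 and 15.8 CPM against 6.43, 7.92, 4.18 and 6.17 CPM, a difference of 1.17 (SE 0.22, edgeR adjusted p = 0.0043). The groups did not overlap in these 3 regions.

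In the sSAN, Myc was at 11.5, 15.2, 12.4 and 16.4 CPM in failing and 4.14, 12.2, 4.44 and 5.47 CPM in healthy libraries. The groups overlapped through healthy library F, and the difference of 1.08 (SE 0.33) did not pass (edgeR adjusted p = 0.059). It passed without that library, at 1.56, and with DESeq2, at 1.05.

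**Figure D3:**
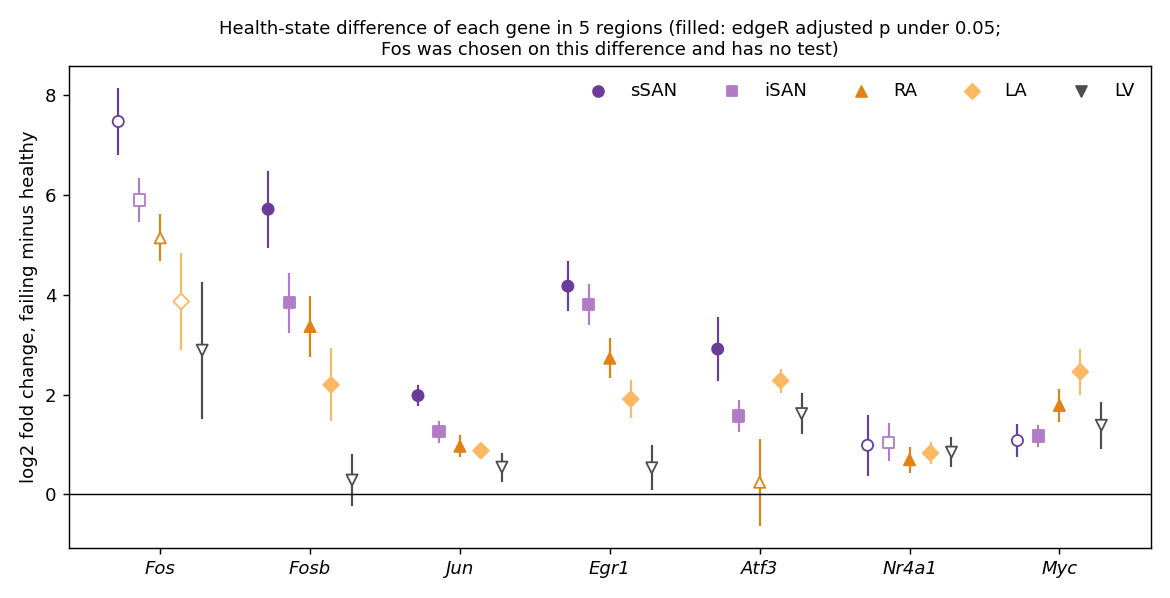
Log2 fold change of failing minus healthy (points, with bars of 1 SE) for each gene in the 5 regions, filled where the edgeR adjusted p was under the threshold of 0.05. Fos, Fosb, Jun and Egr1 step down from the sSAN to the LV, Myc is highest in the LA at 2.46, and the open Fos points carry no test.

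In the LV, which bore the pressure load, 0 of the 6 genes passed with edgeR, and 0 of all 13670 genes tested did. At an unadjusted p under 0.05 there were 3, where 11% of all genes were, and DESeq2 called 1, Atf3, at a log2 fold difference of 1.62, where it called 2.6% of all genes. Atf3 was at 11.0, 14.1, 25.1 and 22.5 CPM in the failing and 5.30 and 6.47 CPM in the healthy LV, and the edgeR difference was 1.62 (SE 0.42, edgeR adjusted p = 0.36). Myc was at 5.03, 7.48, 4.30 and 8.84 CPM against 1.83 and 3.09 CPM, a difference of 1.38 (SE 0.47, edgeR adjusted p = 0.42). Nr4a1 was at 11.5, 15.3, 20.2 and 13 CPM against 7.54 and 9.0 CPM, a difference of 0.85 (SE 0.31, edgeR adjusted p = 0.42). The groups of these 3 genes did not overlap, nor did those of Jun, while those of Fosb and Egr1 did. The share of all genes whose LV groups did not overlap was not computed. The comparison has 2 healthy libraries, and TMM scaling factors of the failing LV ran from 0.379 to 0.945.

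Whether the health difference varied between regions was tested for the 6 genes, leaving out Fos. Between the sSAN and the RA it was larger in the sSAN by 1.04 for Jun (SE 0.32), 2.37 for Fosb (SE 1.05), 2.69 for Atf3 (SE 1.2) and 1.47 for Egr1 (SE 0.64). These 4 had an unadjusted p under 0.05, where 11.3% of all genes did, and 0 of 6 passed after adjustment, with the lowest edgeR adjusted p of 0.29 for Jun. Among all genes 0% passed there. DESeq2 called 0 of the 5 to which it gave an adjusted p, leaving out Atf3, and 0.915% of all genes.

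The other pairs of regions gave 0 of 6 as well. The share of all genes passing was 0.0203% for the iSAN minus the RA, 0% for the sSAN minus the iSAN, 0.171% for the LA minus the RA and 0.114% for the LV minus the LA. At an unadjusted p under 0.05 there was 1 gene for the sSAN minus the iSAN, Jun at 0.72 (SE 0.32), where 4.01% of all genes were. There was 1 for the LV minus the LA, Egr1 at -1.36 (SE 0.62), against 7.14% of all genes, and 0 for the iSAN minus the RA, against 11.6%, and for the LA minus the RA, against 9.2%. DESeq2 called 0 of the 6 in these 4 pairs, against 0.683% of all genes for the iSAN minus the RA, 0% for the sSAN minus the iSAN, 1.26% for the LA minus the RA and 1.23% for the LV minus the LA. The steps from region to region in the plot of log2 fold changes were therefore not established by the test of the difference.

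Among healthy libraries, 1 or 0 of the 6 genes other than Fos passed with edgeR in each comparison of regions. Myc was higher in both node parts than in the RA, by 1.18 on the log2 scale in the sSAN (SE 0.37, edgeR adjusted p = 0.044) and by 1.09 in the iSAN (SE 0.24, edgeR adjusted p = 0.012). It was the 1 gene of 6 to pass in each, where 23.2% and 17.6% of all genes did. The sSAN call was lost in the fit with code as block (1.08), with limma on log2(TPM + 1) (0.62) and without any 1 of the 4 RA libraries or the sSAN library F (0.68) or H. The iSAN call was lost in 1 fit of all libraries (1.05).

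Atf3 was higher in the healthy LV than in the healthy LA, at 5.30 and 6.47 CPM against 1.38 to 1.83 CPM, by 1.84 (SE 0.23, edgeR adjusted p = 8.5e-05). It was the 1 of 6 to pass, where 43.5% of all genes did. At an unadjusted p under 0.05 and with DESeq2 Jun was added, where 51.2% and 42% of all genes were counted. In 1 fit of all libraries, at 1.84, it did not pass. With the block Jun passed too, at 0.43, while on TPM not rescaled between libraries Jun was lower in the LV by a log2 fold difference of -0.39, on a scale where the median of all genes was -0.57. Fos was at 0.589 and 0.703 CPM in the healthy LV and at 0.774 to 3.66 CPM in the healthy LA, groups that did not overlap, a difference of -1.67 (SE 0.63).

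The healthy sSAN and iSAN gave 0 of 6, against 0.00698% of all genes, and the LA and RA 0 of 6, against 9.14%. With edgeR 0 of the 6 had an unadjusted p under 0.05 in either comparison, where 10.2% and 21.5% of all genes did. DESeq2 called 0 of 6 between the node parts, against 0.88% of all genes, and 0 of 5 between the atria, against 12.2%, with no adjusted p for Atf3. Without the healthy RA library E, Atf3 was higher in the iSAN than in the RA by 1.86 and in the sSAN by 1.6, and both passed.

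Among failing libraries Fos was at 192 to 628 CPM in the sSAN and 60.8 to 168 CPM in the RA, groups that did not overlap, with a difference of 2.02 on the log2 scale (SE 0.45). Of the other 6 genes 0 passed with edgeR, where 8.28% of all genes did, and 4 had an unadjusted p under 0.05 (Fosb, Jun, Atf3 and Egr1), where 23.8% of all genes did. With the code as a block 5 of the 6 passed, where 19.9% of all genes did. The blocked differences were 2.02 for Fosb, 0.86 for Jun, 2.10 for Atf3, 1.31 for Egr1 and 0.86 for Nr4a1. Myc, at 0.51, did not pass.

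The failing iSAN and RA gave 0 of 6 with edgeR, against 19% of all genes. At an unadjusted p under 0.05 and with DESeq2 there was 1, Atf3, where 34.6% and 26.2% of all genes were counted. The edgeR difference of Atf3 was 1.21 (SE 0.46, edgeR adjusted p = 0.097), and 1.34 with the block, which passed. Fos had a difference of 1.31 (SE 0.45), and 1.96 without the libraries of code A. These comparisons share the RA libraries with the one above.

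The 2 node parts gave 0 of 6 in failing hearts, against 0% of all genes, with 0 of the 6 at an unadjusted p under 0.05, where 7.86% of all genes were, and 0 with DESeq2, against 0.285%. The Fos difference of the sSAN minus the iSAN was 0.71 (SE 0.44). Without the libraries of code A the differences were 0.15 for Fos, 0.43 for Fosb, from 1.44, and 0.06 for Egr1, from 0.62.

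The failing LA and RA gave 0 of 6, against 0.311% of all genes, with 0 at an unadjusted p under 0.05, against 9.42%, and 0 of 6 with DESeq2, against 2.6%. Fos was at -1.57 there (SE 0.86), and at -2.90 without code A. The failing LV and LA gave 0 of 6, against 10.8%. At an unadjusted p under 0.05 there were 2, Egr1 at -1.63 (SE 0.47) and Atf3 at 1.17 (SE 0.33), where 26.5% of all genes were. DESeq2 called these 2 among the 5 to which it gave an adjusted p, leaving out Fosb, and 19.3% of all genes. Fos was at -2.67 (SE 1.16) and Fosb at -1.13. Without code A, Fos was at -0.59, Egr1 at -0.87, Atf3 at 1.48 and Fosb, with its sign changed, at 0.40.

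The order of the mean levels in failing hearts was sSAN, iSAN, RA, LA, LV for Fos, Fosb, Egr1 and Nr4a1. Mean Fos was 370 ± 188 CPM, 229 ± 126 CPM, 91.0 ± 51.7 CPM, 30.7 ± 44.0 CPM and 4.72 ± 5.98 CPM (SD, n = 4 each) in that order. The ranges of Fos overlapped in all 4 neighbouring pairs of regions. Jun kept the order down to the RA, Atf3 ran sSAN, LV, iSAN, LA, RA, and Myc iSAN, sSAN, LA, RA, LV.

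Within a region the failing libraries with the highest levels were often those of 1 code. In the iSAN library B was highest for 7 of 7 genes. In the sSAN and in the RA library A was highest for 6 of 7, with Myc highest in D in both. In the LA library A was highest for 5 of 7, with Atf3 and Myc highest in C. In the LV library D was highest for 4 genes, Fos, Jun, Egr1 and Myc, and C for the other 3. Library C had the lowest TMM scaling factor of the failing LV, 0.379 against 0.945 in D. On TPM, not rescaled between libraries, D was highest for Fosb, Atf3 and Nr4a1 as well. They were at 0.343, 4.11 and 2.99 TPM in C and at 0.643, 12.8 and 6.69 TPM in D. Code A was thus highest for most genes in 3 regions and not in the iSAN, where its Fos of 145 CPM was the third of 4. Among healthy libraries, RA library E was highest for 6 of 7 genes and LA library E for 5. In the healthy LV, with 2 libraries, H was highest for 6. In the healthy node parts no library was highest for more than 3. How often 1 library is highest over all genes was not counted.

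**Figure D4:**
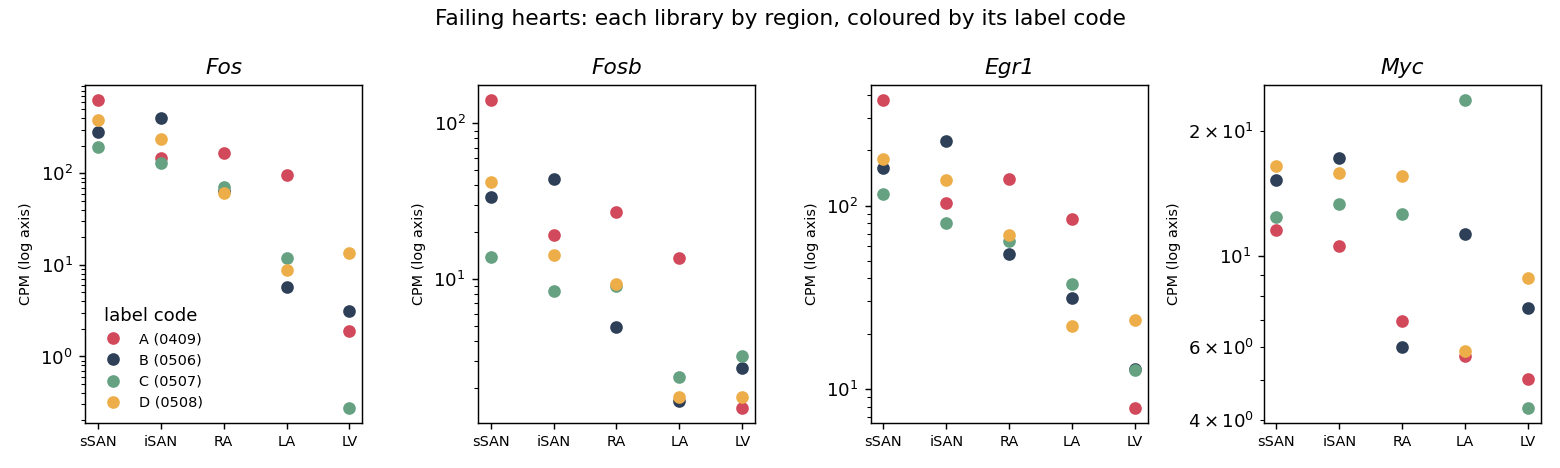
CPM (log axis) of Fos, Fosb, Egr1 and Myc in the failing libraries by region, with 1 colour per label code. Code A is on top for Fos, Fosb and Egr1 in the sSAN, RA and LA, code B is on top for all 4 genes in the iSAN, and the Myc points follow another order.

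After group means were removed, the levels of the 6 genes other than Myc were positively correlated in all pairs among the 20 failing libraries, with Pearson's r of log2 CPM between 0.29 and 0.90. It was 0.75 for Fos and Egr1, 0.90 for Jun and Egr1, 0.89 for Atf3 and Nr4a1, 0.86 for Fosb and Egr1 and 0.54 for Fos and Fosb. Myc had r between -0.26 and 0.06 with the other 6. Among the 18 healthy libraries r was 0.61 for Fos and Egr1, 0.63 for Fos and Fosb, 0.75 for Jun and Atf3 and 0.07 for Jun and Egr1. It was 0.66 for Myc and Nr4a1, -0.38 for Egr1 and Myc and -0.31 for Egr1 and Nr4a1, a pair at 0.72 among failing libraries. The points share codes and libraries, so these values describe this set of libraries and carry no test.

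Over all 38 libraries and 12088 genes, the 2 genes whose levels within groups were most like those of Fos were ENSRNOG00000067725, with r = 0.79, and ENSRNOG00000018835, with r = 0.72. Egr1 had r = 0.69 with Fos on the same measure. ENSRNOG00000067725 was at 315 ± 86.7 CPM in the failing and 24.6 ± 5.54 CPM in the healthy sSAN (SD, n = 4 each), 243 ± 89.2 and 27.9 ± 4.32 CPM in the iSAN, 148 ± 37.2 and 25.2 ± 2.66 CPM in the RA, 96.2 ± 41.3 and 26.4 ± 2.02 CPM in the LA, and 52.4 ± 33.2 (n = 4) and 24.4 ± 0.676 CPM (n = 2) in the LV. Its failing levels thus followed the same order of regions as those of Fos. ENSRNOG00000018835 was at 51.6 ± 14.5 and 41.5 ± 3.65 CPM in the failing and healthy iSAN and at 23.2 ± 2.79 and 30.4 ± 1.85 CPM in the LA (SD, n = 4 each). The files do not pair these IDs with names.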

How the data were processed

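RNA was sequenced from 38 libraries of rat heart tissue (TruSeq kit, RIN above 7, per the labels' protocols). The submitters' processing notes name Trimmomatic 0.39 for trimming and kallisto 0.48.0 for quantification. The sources used here do not give the build, the annotation or how transcripts were summed to genes. The authors deposited estimated counts and TPM per gene for 24057 Ensembl IDs. The deposited estimated counts equalled the TPM times a gene term and a library term (13474 genes above 0 in all libraries, residual of the log below 1e-10), so they were already scaled for length. Of the IDs, 0 matched the reference table, so the symbols come from the list of members, and other gene lists and cell type markers were not applied. Members and lists were chosen with earlier results of these data known.

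Estimated counts were rounded and tested with edgeR 4.0.16, robust quasi-likelihood (R 4.3.3; filterByExpr with count minimum 10 and total minimum 15; TMM), each fit on the groups compared. P-values were Benjamini-Hochberg adjusted over all genes tested, with a threshold of 0.05. A log2 difference is the first-named group less the other, and its SE was derived from the test. Printed CPM use TMM factors over all 38 libraries (15770 genes). All 7 members are named. Fos was fitted between regions too, but its levels selected it, so its region values are given without a test. Genes like Fos were the 2 with the highest Pearson r of log2 CPM (prior count 2, mean log2 CPM of at least 1), group means removed. The alternatives were DESeq2 1.42.0, its size factors in edgeR, no filter, limma 3.58.1 on log2 of TMM-scaled TPM with a pseudocount of 1, the code as a block, 1 fit of all 38 libraries and each library left out (194 refits). Chosen after seeing the data were TPM not rescaled and the removal of code A. Scripts were tested on simulated data.

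Codes were taken to pair libraries where, for every code, deviations from the group means correlated across genes above 0.1. This held for the sSAN and RA (r 0.46 to 0.52 failing, 0.24 to 0.28 healthy), the iSAN and RA (0.27 to 0.43 and 0.21 to 0.39), the failing sSAN and iSAN (0.40 to 0.73) and the healthy LA and RA (0.39 to 0.47). The pairing rests on the data and the shared codes. No libraries were identical.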

Additional observations from a re-analysis of the deposited data

Results flagged for a closer look

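In groups of 4 libraries, 63 sets of log2 CPM values were checked by Dixon's test at the 95% level. In 7 of the sets, 1 library had a gap to its nearest neighbour that was too large a share of the range. Chance alone gives about 1 in 20 among independent sets. The genes were measured in the same libraries, so these sets are not independent. Of the 7, 4 were high values of code A in failing hearts. Fos was at 168 CPM in the RA, where the other libraries had 60.8 to 71.0 CPM. Fosb was at 13.7 CPM in the LA, against 1.66 to 2.34 CPM, and Jun at 174 CPM in the LA, against 125 to 131 CPM. Atf3 was at 78.8 CPM in the sSAN, against 13.2 to 17.1 CPM.

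The other 3 were low values in healthy hearts. Fos was at 2.40 CPM in iSAN library F, where the others had 4.07 to 4.25 CPM. Atf3 was at 2.62 CPM in iSAN library G, against 5.61 to 5.81 CPM. Nr4a1 was at 8.49 CPM in RA library G, against 15.4 to 15.8 CPM.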

How the results depend on the processing

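The number of the 6 genes called between failing and healthy hearts stayed within 1.5 times its value in the node and the atria under every alternative. In the LV it was 0 with edgeR and 1 with DESeq2. Between regions the counts of the 6 genes were less stable. Ranges with 1 library left out count Fos as well, whose calls are no test. The share of all genes called under the same setting stands in brackets. For the healthy sSAN against RA, 1 became 0 with limma on log2(TPM + 1), rescaled (29.5%) or not (40.1%), and with the replicate block (24.6%), and ranged from 0 to 1 with 1 library left out. For the healthy iSAN against RA, 1 became 0 in 1 fit of all libraries (7.46%) and ranged from 1 to 3 with 1 library left out. For the healthy LV against LA, 1 became 2 with DESeq2 (42%), with its size factors (43.6%) and with the block (41.5%). It was 4 with limma on TPM not rescaled (75.5%) and 0 in the fit of all libraries (21.5%). With 1 library left out it ranged from 1 to 2. For the failing sSAN against RA, 0 became 3 with DESeq2 (15.2%) and 5 with the block (19.9%). It was 4 in the fit of all libraries (10.6%) and 2 without code A (4.09%). With 1 library left out it ranged from 0 to 2. For the failing iSAN against RA, 0 became 1 with DESeq2 (26.2%), with limma (16%), on TPM not rescaled (17.1%) and with the block (25.9%). It was 2 without code A (20.3%) and up to 2 with 1 library left out. For the failing LA against RA, it stayed at 0 without code A (0.135%) and was up to 1 with 1 library left out. For the failing LV against LA, 0 became 2 with DESeq2 (19.3%) and on TPM not rescaled (19.2%). It was 1 with the DESeq2 size factors (11%), with limma (9.67%) and in the fit of all libraries (33.6%). With 1 library left out it was up to 1. The cause was not tested.

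Where the value before or after was called, directions reversed for Atf3 in the healthy sSAN and iSAN against the RA (1.6 and 1.86 without RA library E, from -0.37 and -0.11; with 1 library left out they ranged from -0.72 to 1.6 and from -0.47 to 1.86) and for Jun in the healthy LV against LA (-0.39 on TPM not rescaled, from 0.38). Values not called either way changed sign in 84 more cases, 64 of them with 1 library left out. Among the others, with the block, were Atf3 in the healthy sSAN (0.47) and iSAN (0.73) against the RA and Nr4a1 in the healthy LV against LA (0.03, from -0.38). With TPM not rescaled, the all-gene median was between -0.26 (LV) and 0.12 (sSAN) for health state and reached -0.70 for the failing LV against LA. The number of all genes called moved as well: in the sSAN from 1934 to 3293 with DESeq2 and 1180 on TPM not rescaled, in the iSAN from 5533 to 2883 on that scale, and in the LV from 0 to 356 with DESeq2 and 3009 in the fit of all libraries. For the failing sSAN against RA it was 1179 and 2838 with the block. Over all comparisons and alternatives, the count of all genes called stayed within 1.5 times in 221 cases, rose in 48 and fell in 60. Log2 differences of single members, Fos between regions included, kept direction and call in 1992 cases, gained the call in 61 and lost it in 38. In 91 an uncalled value changed sign or a Fos value moved beyond its spread, and in 3 a called value reversed.

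DESeq2 gave no adjusted p in 10 cases: for health state Atf3 in the sSAN and RA and Fosb in the LA, for healthy regions Atf3 in the iSAN and LA against the RA, for failing regions Atf3 in the sSAN against RA, Fos in the LA against RA and Fos and Fosb in the LV against LA, and Atf3 for the health difference of the sSAN minus the RA. No paired analysis was possible between health states because 0 codes are shared. The replicate block changed no call of a member other than those given beside the results. Where the codes do not pair the libraries, the block gave 2 calls in the healthy LV against LA and no other change in the member counts. The low depth of Fos in healthy libraries and in the LV limits its fold changes, and log2(TPM + 1) understates changes of low genes.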
